A study of Mus musculus with 2 samples.

Results

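The TAM system of liver mesothelium is described here from its 2 secreted ligands, Gas6 and protein S (Pros1), and its 3 receptor tyrosine kinases, Axl, Mertk and Tyro3. These 5 genes, out of 18193 named on the array, were taken by symbol from the platform annotation and were represented by 8 of 45037 probe sets other than controls. They were chosen with their values on these arrays known, so that what follows is a description and no test of them was made. Gas6 stood far higher in adult than at embryonic day 12.5 (E12.5), Pros1 and Mertk moderately higher, Axl nearly equal and Tyro3 lower.

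Gas6 and protein S are bridging proteins. Their amino-terminal Gla domain, which has to be gamma-carboxylated in a vitamin K-dependent reaction, binds phosphatidylserine on apoptotic cells and membranes, while their carboxy-terminal domain binds a receptor. Gas6 binds Axl, Mertk and Tyro3, whereas protein S acts mainly through Mertk and Tyro3 and is also an anticoagulant cofactor made by hepatocytes and endothelium. In phagocytes, Mertk and Axl serve the uptake of dying cells and restrain innate immune signalling, and in the liver Mertk is known from macrophages and Gas6 from stellate cells and other nonparenchymal cells.

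Material amplified from total RNA had been hybridised to 1 Affymetrix array for each of 2 groups. The adult group was mesothelial cells of livers of 8-week-old C57BL/6 mice, sorted with an antibody to Mesothelin, and the other group was mesothelial cells of E12.5 C57BL/6 livers, sorted with an antibody to PCLP1, the product of Podxl. Both livers had been dissociated with collagenase, and the labels name no transgene, mutant allele or agent for either group and do not say how many animals were pooled. There were no replicates, so that every difference below lacks an error between samples, and the effects of stage, of the antibody used for sorting and of the array itself cannot be told apart.

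Signals are linear probe set intensities. Adult signals were divided by 0.680, the ratio of the arrays' median raw signals and the authors' own scaling, and every adult signal below is scaled in this way unless called raw. A probe set counts as detected where the deposited call is present, as for 52.2% of probe sets in adult and 51.9% at E12.5. Differences are log2 adult signal minus log2 E12.5 signal. The label was checked against 16 mesothelial markers, all of them detected, with 15 called present in adult and 15 at E12.5. Of the 16, 6 were at least 2-fold higher in adult and 2 at least 2-fold lower, the genes of both sorting antigens included. Msln, the gene of the adult sorting antigen, had 11835 in adult and 48.5 at E12.5, while Podxl had 1807 in adult and 6069 at E12.5. The mesothelial gene Nkain4 had 5837 in adult and was absent at E12.5 (at least 47.8-fold higher in adult), while the transcription factor Tcf21 was absent in adult and had 362 at E12.5 (at least 9.21-fold lower in adult), with its probe sets differing in direction. The transcription factor Wt1 had 2228 in adult and 2152 at E12.5, and the uroplakin Upk3b 18571 in adult and 10114 at E12.5, both picked after their values were seen.

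The ligands were higher in adult. Gas6 (Entrez gene 14456) had a signal of 11889 in adult and 380 at E12.5 with probe set 1417399_at, called present on both arrays. This was 31.3-fold higher in adult, a log2 difference of 4.97. The raw signals, 8088 in adult and 380 at E12.5, were 21.3-fold apart, so that the direction did not rest on the scaling. The second Gas6 probe set, 1459585_at, had 169 in adult, where it was present, and 5.32 at E12.5, where it was absent, and was therefore at least 31.8-fold higher in adult. Both probe sets of the gene were brighter in adult. The size of the bound of the second rested on an E12.5 signal that was not above background: its log2 difference of 4.99 was 3.12 with 16 added to each signal and 2.40 with signals under 32 set to 32. Of the 10154 genes called present on both arrays, 37 had a difference towards adult as large as that of Gas6 or larger, Gas6 included, or 0.364%.

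**Figure D1:**
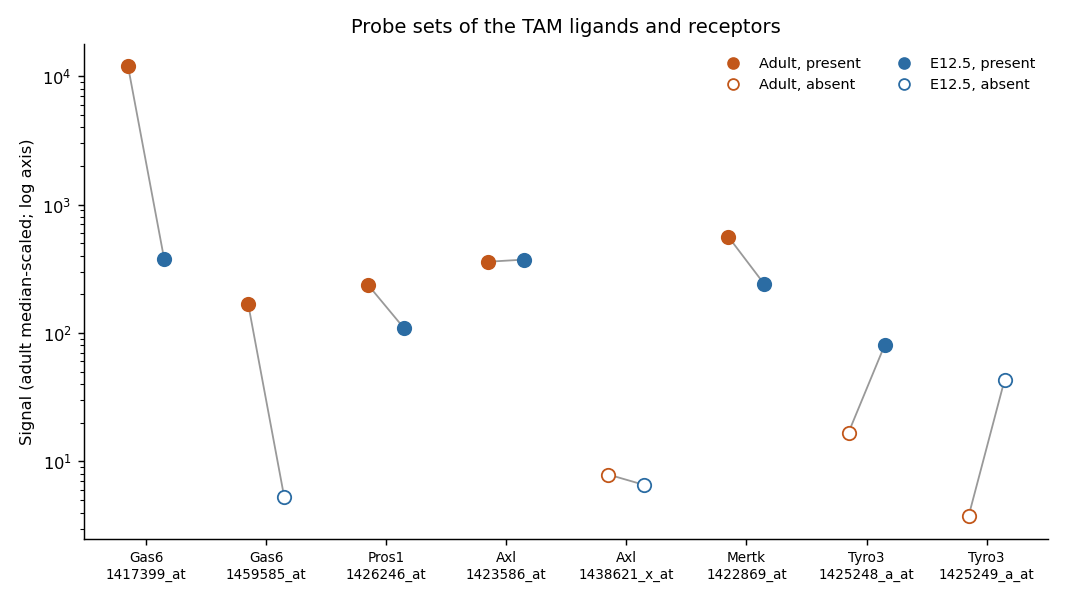
Signal of every probe set of the TAM ligands and receptors on a log axis, adult (orange, left of each pair) and E12.5 (blue, right); filled circles were called present and open circles absent. Each point is 1 array. Gas6 reached 11889 in adult against 380 at E12.5, Axl stood at 359 against 373, and both Tyro3 probe sets were absent in adult.

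Pros1 (Entrez gene 19128), the gene of protein S, had 236 in adult and 108 at E12.5 with its single probe set, present on both arrays. It was 2.18-fold higher in adult, a log2 difference of 1.12. As raw signals, 161 in adult and 108 at E12.5, the fold was 1.48, so that Pros1 passed 2-fold with the arrays scaled and not without scaling. Of the genes present on both arrays, 11.8% had a difference towards adult at least as large.

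The receptors differed among themselves in direction. Mertk (Entrez gene 17289), the receptor best known for the clearance of apoptotic cells, had 560 in adult and 239 at E12.5, present on both arrays. It was 2.34-fold higher in adult (log2 difference 1.23), and 10.7% of genes present on both arrays were at least as far towards adult. Its raw signals of 381 in adult and 239 at E12.5 were 1.59-fold apart, again under 2-fold without scaling.

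Axl (Entrez gene 26362), the receptor with the strongest preference for Gas6, had 359 in adult and 373 at E12.5 with probe set 1423586_at, present on both arrays. The log2 difference was -0.06, and only 3.43% of genes present on both arrays lay as near to equality. The sign of so small a difference depended on the scaling: it was -0.61 in raw signals, 0.25 after quantile normalization and 0.32 with the genes present on both arrays centred on 0. The other Axl probe set, 1438621_x_at, was absent on both arrays at 7.91 in adult and 6.56 at E12.5 and gives no fold.

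Tyro3 (Entrez gene 22174), a receptor best known from the nervous system, was the member lower in adult. Probe set 1425248_a_at had 16.8 in adult, called absent, and 80.0 at E12.5, called present, and was at least 4.77-fold lower in adult (log2 difference -2.25). Its second probe set, 1425249_a_at, was absent on both arrays, at 3.76 in adult and 43.2 at E12.5. The deposited table lists a further, predicted locus beside Tyro3 for both probe sets, while the platform annotation used here gives Tyro3 alone, so that signal from a near-identical sequence cannot be told apart from that of Tyro3. At these low signals the size of the difference was loosely fixed, at -1.55 with 16 added and -1.32 with signals under 32 set to 32.

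In all, adult signals were at least 2-fold higher for 3 of the 5 genes, at least 2-fold lower for 1 and within 2-fold for 1. Of all 12801 genes detected on at least 1 array, 17% passed 2-fold towards adult and 29.1% towards E12.5, and of the 10154 present on both arrays 13.2% and 27.1%. Since the genes were chosen with these values known, nothing is read from the members' count. Probe sets of the same gene present on both arrays disagreed by 0.62 log2 units (pooled SD, 4279 genes with 11071 probe sets), a measure of disagreement within these arrays and not of error between arrays.

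**Figure D2:**
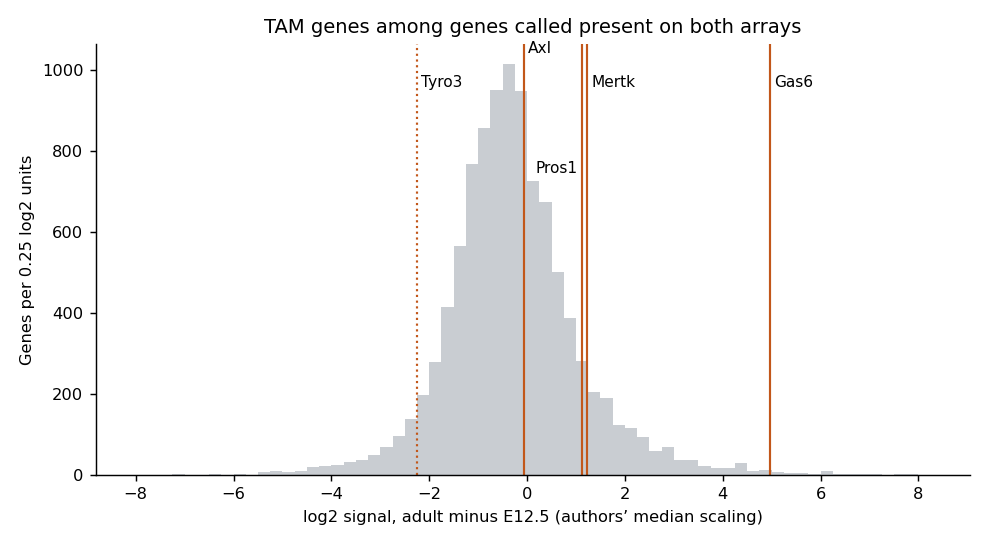
Histogram of the log2 difference, adult minus E12.5, of the 10154 genes present on both arrays, with lines at the 5 TAM genes; the dotted line of Tyro3 is a bound, because the gene was absent in adult. Gas6 at 4.97 lies in the sparse right tail, Pros1 at 1.12 and Mertk at 1.23 on the right shoulder, and Axl at -0.06 near the bulk of the genes, whose median was -0.37.

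**Figure D3:**
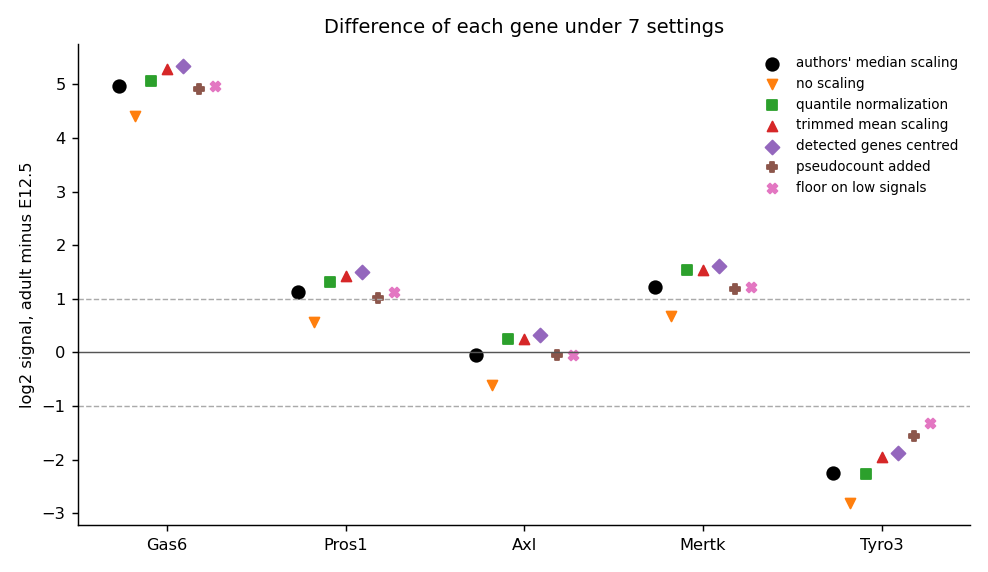
log2 difference, adult minus E12.5, of each gene's brightest detected probe set under 7 settings; dashed lines mark 2-fold in either direction. Gas6 stayed between 4.41 and 5.34 and Tyro3 between -2.81 and -1.32, whereas Pros1 and Mertk were inside 2-fold only without scaling and Axl was inside 2-fold in all 7.

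Some genes had differences close to those of the members, by the absolute distance between log2 differences over the 2 arrays. Nearest to Gas6 were the transcription factor Osr1 (1998 in adult and 63.7 at E12.5), the thrombin receptor thrombomodulin, Thbd (2533 in adult and 81.0 at E12.5), and the serpin Serpinb6b (3675 in adult and 118 at E12.5). For Pros1 they were Lrba, Elac1 and Borcs8, for Mertk Prss36, Gimap8 and Tmem86a, and for Axl Gabarapl2, Klf10 and Wdr11. With 2 arrays such likeness is that of 1 number per gene.

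The promoters of the 3 members at least 2-fold higher in adult are shown because these genes differed in the same direction. The windows are those of RefSeq on GRCm38.p6, 250 bases before to 50 after the annotated start, read 5′ to 3′ on the gene's strand. They lie at chr8:13494486-13494785 (minus strand) for Gas6, chr16:62854057-62854356 (plus strand) for Pros1 and chr2:128698665-128698964 (plus strand) for Mertk. Capitals mark GC boxes, that is GGGCGG on either strand, the motif bound by Sp family factors.
Gas6: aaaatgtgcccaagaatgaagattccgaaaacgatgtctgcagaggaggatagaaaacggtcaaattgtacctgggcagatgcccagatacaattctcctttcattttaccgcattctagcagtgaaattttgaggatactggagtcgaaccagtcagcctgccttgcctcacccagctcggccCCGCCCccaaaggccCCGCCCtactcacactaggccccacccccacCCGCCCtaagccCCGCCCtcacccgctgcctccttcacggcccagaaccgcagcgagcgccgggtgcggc
Pros1: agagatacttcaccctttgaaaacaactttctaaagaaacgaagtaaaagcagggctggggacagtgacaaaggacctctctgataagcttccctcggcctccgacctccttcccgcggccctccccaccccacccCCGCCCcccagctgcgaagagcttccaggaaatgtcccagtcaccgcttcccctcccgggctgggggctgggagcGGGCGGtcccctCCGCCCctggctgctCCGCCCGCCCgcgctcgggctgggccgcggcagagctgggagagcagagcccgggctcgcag
Mertk: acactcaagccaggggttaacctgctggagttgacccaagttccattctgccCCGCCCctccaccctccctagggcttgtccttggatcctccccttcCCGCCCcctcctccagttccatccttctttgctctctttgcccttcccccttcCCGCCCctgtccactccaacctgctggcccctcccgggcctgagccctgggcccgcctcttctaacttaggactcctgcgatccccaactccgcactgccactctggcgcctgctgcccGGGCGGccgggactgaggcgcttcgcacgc

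GC boxes, with overlapping matches counted, numbered 4 in the Gas6 window, 5 in that of Pros1 and 4 in that of Mertk. The receptors that were not higher in adult had them too, 2 for Axl and 6 for Tyro3. Of 32851 promoter windows of the same length, 35.7% held at least 1. The windows held 17 CpG dinucleotides for Gas6, 21 for Pros1, 14 for Mertk, 6 for Axl and 31 for Tyro3, where the median window had 7. With both strands searched, none of the 5 windows held the TATA box TATAAA, found in 13.6% of all windows. None held CCAAT, found in 37.4%, or the AP-1 motif TGANTCA, found in 7.81%. GGAATG, the core of the TEAD motif, was found once, in the Axl window (14.7% of all windows). These matches describe the letters of the windows and bear on no factor.

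Around the members, 8 lists of pathway genes with 110 distinct genes were examined, of which 89 were detected on at least 1 array. In adult 24 of the 89 (27.0%) were at least 2-fold higher and 18 (20.2%) at least 2-fold lower, with a median log2 difference of -0.03. The count of 18 was 38 without scaling and 11 with genes present on both arrays centred. Without scaling, the genes at least 2-fold lower in adult numbered 3 in the vitamin K list in place of 1, 6 in the engulfment list in place of 2, 9 among adaptors and kinases in place of 2, and 1 among shedding genes in place of 0. Over all detected genes the shares were 17% and 29.1% and the median was -0.34. Genes named below but not among the largest differences of their list were picked after their values were seen.

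The reaction that makes Gas6 and protein S active had genes with no common direction. Of 6 detected genes of the vitamin K cycle (7 listed), 1 was at least 2-fold higher in adult, 1 at least 2-fold lower and 4 neither. Over all detected genes, 17% passed 2-fold towards adult and 29.1% towards E12.5. Without scaling, 3 of the 6 passed 2-fold towards E12.5. The gamma-carboxylase Ggcx had 82.3 in adult and 63.3 at E12.5, and the vitamin K epoxide reductase Vkorc1 had 3919 in adult and 2946 at E12.5, both present on both arrays and within 2-fold. Aifm2, a reductase that can regenerate reduced vitamin K, had 722 in adult and 139 at E12.5 (5.18-fold higher in adult). Its 3 detected probe sets had log2 differences from 1.45 to 2.37. Calumenin (Calu), an endoplasmic reticulum protein that inhibits carboxylation, had 1629 in adult and 4087 at E12.5 (2.51-fold lower in adult). This was its brightest probe set, and the other of its 2 had a log2 difference of only -0.17. Vkorc1l1, the paralogue of Vkorc1, had 108 in adult and 198 at E12.5, and the quinone reductase Nqo1 had 27.5 in adult, absent, and 42.8 at E12.5, present. The fold of Nqo1 is a bound from below, so that its place among the 4 is not fixed.

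Of other proteins that carry gamma-carboxyglutamate, 9 genes were detected (14 listed). In adult 5 were at least 2-fold lower and 1 at least 2-fold higher, beside 29.1% and 17% of all detected genes. The median of -2.10 was -0.46 over all measured members with no detection filter. All 9 were present at E12.5. The 3 that were present there alone passed the detection filter only through E12.5 and could count only as lower in adult or as 0. Matrix Gla protein, Mgp, an inhibitor of calcification, was the one higher in adult, with 6870 in adult and 626 at E12.5 (11.0-fold). Coagulation factor X (F10) had 35.8 in adult and 329 at E12.5, prothrombin (F2) 86.8 in adult and 373 at E12.5, and protein C (Proc) 58.6 in adult and 251 at E12.5. The 2 detected probe sets of F10 had log2 differences from -3.20 to -1.21. Protein Z (Proz) and the inter-alpha-trypsin inhibitor chain Itih2 were absent in adult and at least 5.08-fold and 10.5-fold lower there. These 5 are plasma proteins of hepatocytes, as is protein S, whose gene was higher in adult. The summed signal of 14 detected hepatocyte and hepatoblast markers was 3067 in adult and 33284 at E12.5, with 12 at least 2-fold lower in adult. The part of such cells in these values was not tested.

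The partners of protein S in coagulation divided, with 3 of 9 detected genes (10 listed) at least 2-fold higher in adult and 4 at least 2-fold lower. Thrombomodulin had the same fold as Gas6, 31.3, and the endothelial protein C receptor, Procr, had 1015 in adult and 103 at E12.5 (9.84-fold). Both stand on the protein C branch, for which protein S is the cofactor, and factor VIII (F8), cut by activated protein C, had 237 in adult and 36.0 at E12.5. Factor V (F5), the other substrate, was absent in adult at 16.3 and present at E12.5 at 179, and the factor V carrier multimerin 1, Mmrn1, had 50.8 in adult and 511 at E12.5. The 2 detected probe sets of F5 had log2 differences from -3.45 to -1.25. Platelet genes moved the same way as Mmrn1 and F5: 7 of 7 detected megakaryocyte and platelet markers were at least 2-fold lower in adult, with summed signals of 1087 in adult and 15703 at E12.5. Their part was not tested. Tissue factor (F3) had 649 in adult and 647 at E12.5.

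Genes that expose or hide phosphatidylserine, the lipid that Gas6 and protein S bind, lay within 2-fold in all 7 detected members (11 listed) by the brightest probe set of each. Without scaling, 3 of the 7 were at least 2-fold lower in adult. The scramblase Xkr8 had 87.7 in adult and 135 at E12.5, the flippases Atp11a and Atp8a1 had 760 and 204 in adult and 534 and 311 at E12.5, and their subunit Tmem30a had 369 in adult and 569 at E12.5. Other probe sets of Xkr8 and Tmem30a pointed towards adult, and another of Atp8a1 had a log2 difference of -1.42. The list median of -0.00 was 0.38 after quantile normalization and -0.56 without scaling.

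Of the other receptors and bridging molecules for apoptotic cells, 11 of 22 detected genes (27 listed) were at least 2-fold higher in adult and 5 at least 2-fold lower, with a median of 1.14. Galectin-3 (Lgals3), described as a further ligand of Mertk, had 5582 in adult and 137 at E12.5 (40.9-fold). The complement component C1q, which bridges to apoptotic cells, was higher in adult in all 3 chains: C1qa had 1965 in adult and 49.5 at E12.5, C1qb 2151 in adult and 44.5 at E12.5, and C1qc 1668 in adult and 34.0 at E12.5, with no present call at E12.5 for C1qa and C1qc. Annexin A1 (Anxa1) had 9018 in adult and 463 at E12.5, and the stabilins Stab1 and Stab2, receptors for phosphatidylserine on sinusoidal endothelium, were 6.07-fold and 6.99-fold higher in adult. The bridging protein Mfge8, which links phosphatidylserine to integrins, had 1523 in adult and 1604 at E12.5. Megf10 was absent in adult at 3.67 and present at E12.5 at 170, and the integrin subunit Itgb3 had 689 in adult and 1604 at E12.5. Without the 5 detected genes that also stand on a marker list of another cell type, 6 of 17 were higher in adult and 5 lower, with a median of 0.36.

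Engulfment signalling genes showed no common direction, with 3 of 12 detected (14 listed) at least 2-fold higher in adult and 2 at least 2-fold lower. The adaptor Gulp1 had 589 in adult and 245 at E12.5, and the lipid transporter Abca7 had 542 in adult and 158 at E12.5. The exchange factor Dock1, which activates Rac1 downstream of Mertk, had 366 in adult and 943 at E12.5, and its fellow exchange factor Vav3 33.9 in adult and 116 at E12.5. Rac1 itself had 3246 in adult and 2447 at E12.5.

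Of 19 detected adaptors and kinases that TAM receptors use (21 listed), 14 lay within 2-fold, 3 were higher in adult and 2 lower, with a median of -0.31. The interferon receptor chain Ifnar2, part of the complex through which TAM receptors induce suppressors of cytokine signalling in dendritic cells, had 1855 in adult and 397 at E12.5 (4.68-fold), while its partner Ifnar1 had 265 in adult and 300.3 at E12.5. Socs3, one of those suppressors, had 4395 in adult and 1247 at E12.5 (3.52-fold), while its 3 detected probe sets had log2 differences from 0.57 to 1.82. The tensin Tns2 was 5.38-fold higher in adult, and the ubiquitin ligases Cbl (422 in adult and 921 at E12.5) and Cblb (230 in adult and 482 at E12.5) were the 2 lower in adult.

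Of the proteases that shed Axl and Mertk from the cell surface, Adam17 had 477 in adult and 487 at E12.5, close to equal, and Adam10 had 1361 in adult and 2043 at E12.5, a log2 difference of -0.59. Among inhibitors of metalloproteinases, Timp2 had 14688 in adult and 1164 at E12.5 (12.6-fold), Timp3, which inhibits Adam17, had 1841 in adult and 803 at E12.5 (2.29-fold), and Timp1 had 1144 in adult and 669 at E12.5 (1.71-fold). These folds are those of the brightest probe set, which for Timp2 and Timp3 was also the one furthest towards adult. The smallest log2 difference among the 5 detected probe sets of Timp2 was 1.24. Among the 4 of Timp3 it was 0.48, which is under 2-fold. By the brightest probe set of each, 2 of 6 detected genes of this list (7 listed) passed 2-fold towards adult and none towards E12.5.

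**Figure D4:**
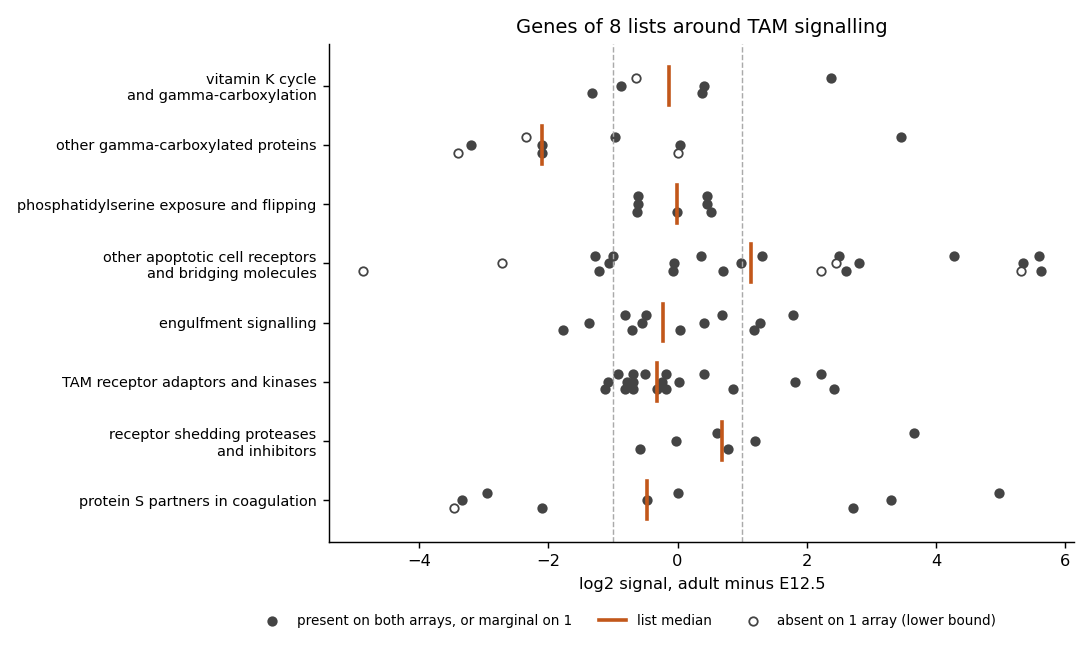
log2 difference, adult minus E12.5, of each detected gene of 8 lists around TAM signalling; open circles were absent on 1 array and are lower bounds, orange bars are list medians and dashed lines mark 2-fold. With the authors' scaling and the brightest probe set of each gene, phosphatidylserine genes lie within 2-fold (3 of 7 are lower in adult without scaling), the other apoptotic cell receptors spread from -4.86 to 5.62, and gamma-carboxylated proteins other than the ligands have their median at -2.10.

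Markers of further liver cell types also differed between the arrays, and in a sorted bulk sample fewer cells of a type and less RNA per cell cannot be told apart. Counts of markers, here and above, are to be set beside the shares over all detected genes, 17% towards adult and 29.1% towards E12.5. Kupffer cells and other macrophages, known to express Mertk, had all 18 listed markers detected in adult and at least 2-fold higher there, with summed signals of 31722 in adult and 1147 at E12.5 (27.7-fold). At E12.5 8 of them were present, and the Kupffer cell lectin Clec4f, at 4054 in adult, and Vsig4, at 1783 in adult, were absent there. Mertk was 2.34-fold higher in adult. Of 15 detected endothelial markers (16 listed) 6 passed 2-fold towards adult, none towards E12.5 (2 without scaling) and 9 neither. The largest differences were those of Dnase1l3, Clec4g and Fcgr2b of the sinusoids, while Vwf, Tek and Cdh5 had -0.95, -0.90 and -0.23. By the probe sets used, Dnase1l3 and Fcgr2b were absent at E12.5. The 2 detected probe sets of Dnase1l3 had log2 differences from 1.97 to 6.73. Summed signals of the endothelial list were 19130 in adult and 4253 at E12.5 (4.50-fold), with Clec4g alone at 6765 in adult. The list median was only 0.54 (1.45-fold). Stellate cell markers were at least 2-fold lower in adult in 7 of 11 detected genes and higher in 2, with a median of -1.10. Lhx2, Reln and Hgf had no present call in adult, while Ecm1 and Lrat were the 2 higher there. The stellate sums were 7909 in adult and 5849 at E12.5, of which Ecm1 alone had 5102 in adult and 1343 at E12.5. Erythroid markers were present at E12.5 in 9 of 9 detected genes and in none in adult, with sums of 157 in adult and 3090 at E12.5. Markers present on 1 array alone, as were these 9 and 10 of the 18 of macrophages, passed the detection filter only through the array where they were bright. That filter thus largely fixed the direction of their difference. The same held for 5 stellate, 3 hepatocyte, 2 platelet and 1 mesothelial marker present only at E12.5. It also held for 2 endothelial, 2 hepatocyte, 1 stellate and 1 mesothelial marker present only in adult, and for pathway genes present on 1 array alone. The part of each cell type in the differences of Gas6, Pros1, Mertk and Tyro3 was not tested.

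**Figure D5:**
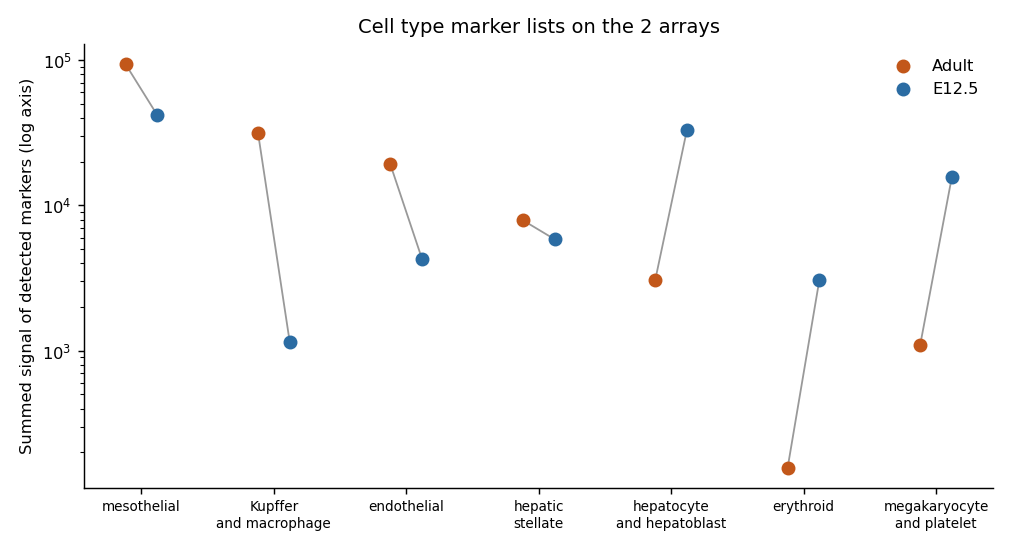
Summed signal of the detected genes of 7 cell type marker lists on a log axis, adult (orange, left) and E12.5 (blue, right), 1 array each. Kupffer cell and macrophage markers summed to 31722 in adult against 1147 at E12.5 and hepatocyte and hepatoblast markers to 3067 against 33284, while mesothelial markers summed to 93831 against 41794.

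Control probe sets also differed between the arrays in a measure that does not tell RNA quality from the amplification. The ratio of 3′ to 5′ signal of the control probe sets was 6.81 in adult and 2.07 at E12.5 for Gapdh, and 3.47 in adult and 1.93 at E12.5 for beta-actin. Signals of probe sets far from the 3′ end fall when transcripts are short, and the place of the TAM probe sets in their transcripts was not analysed here. The part of this in the low adult signals of Tyro3 and of other genes low in adult was not tested.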

How the data were processed

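RNA of 2 sorted mesothelial cell samples, 1 array per group, had been amplified from 10 ng in 2 cycles, per the labels' protocols. The authors deposited raw signals, an intensity per probe set on a linear scale, with a detection call of other kind, which the file headers call flags, and a ratio of adult to E12.5 signal. The submitters' processing notes name Affymetrix Expression Console, with no algorithm or setting. Tested on the values, the deposited ratio is the raw adult signal over 0.680 times the raw E12.5 signal, with a floor of 0.01 at 78 probe sets, and the series value table repeats the raw signals, rounded. Gene symbols came from the platform annotation of 2016, updated through Entrez numbers with RefSeq (GRCm38.p6): 34945 of 45037 probe sets had 1 symbol, 932 several and 9160 none, and 34741 were found in RefSeq by number.

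Each gene was read from its brightest probe set (mean log2 signal over both arrays) with a present call on at least 1 array. Where the other array's call was absent, the fold is written as a bound from below (at least). It is taken against the higher of the dim signal and the lowest detected signal of that array (5.84 in adult, 4.57 at E12.5). Where this fold fell under 1 none was printed, and the gene stayed in the counts and medians with a log2 difference of 0. The lowest detected signal is no detection limit, since probe set 1425249_a_at of Tyro3 was called absent at 43.2 at E12.5. The size of such bounds rests on low signals. That of Tyro3 1425248_a_at, 4.77-fold, was 2.93-fold with the pseudocount and 2.50-fold with the floor. With 1 array per group no test was made and no p-value given, and the number of arrays limits the precision. The members and lists were chosen with earlier results of these data known. Named genes were all probe sets of the 5 members, up to 4 genes per pathway list with the largest absolute difference (all if 5 or fewer were detected), up to 3 per marker list, and the 3 genes nearest in difference to each member present on both arrays. The calculations used Python 3.11.15, numpy 2.4.6 and pandas 2.3.3 and were tested on simulated data. Alternatives were quantile, trimmed mean, centred and no scaling, a pseudocount of 16, a floor of 32, other choices of probe set and detection filter, and the deposited ratio and value table.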

Additional observations from a re-analysis of the deposited data

How the results depend on the processing

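No paired analysis was possible because each group holds 1 array. The log2 differences of Gas6 (4.41 to 5.34), Pros1 (0.57 or more), Mertk (0.67 to 1.60) and Tyro3 (-2.81 to -1.32) kept their direction under the scalings, the pseudocount and the floor, while that of Axl ranged from -0.61 to 0.32. Without scaling, 1 member in place of 3 was at least 2-fold higher in adult, 38 pathway genes in place of 18 and 5958 of all genes in place of 3731 passed 2-fold towards E12.5, and 19.7% of 2-fold differences over all genes lay towards adult in place of 36.8%. That share was 51.1% with trimmed means set equal and 54.2% with genes present on both arrays centred, which left 11 pathway genes and 2478 of all genes higher at E12.5. The shift of all signals by 0.56 (no scaling) or of the median gene by 0.37 (centring) is the alternatives' own construction. The Tyro3 difference was -1.55 with the pseudocount and -1.32 with the floor, in place of -2.25. Genes at least 2-fold higher in adult numbered 3581 with no detection filter and 1376 among probe sets present on both arrays, in place of 2172. Medians of the vitamin K, engulfment, adaptor, phosphatidylserine and protein S partner lists, all within 0.50 of 0, changed sign under some alternatives, as did that of endothelial markers (0.54, and -0.01 without scaling), and that of protein S partners was -1.29 with cross-matching probe sets left out. The deposited ratio and the value table hold the same numbers as the reported values and so are no check of them, and alternatives on probe sets and detection were run for the lists and all genes, not for the members. Stage, antibody and array cannot be told apart, and signals called absent give bounds only, whose size rests on those low signals.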
